A study of Rattus norvegicus with 9 samples.

Results

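Oxidative phosphorylation genes encode the respiratory chain and the ATP synthase of mitochondria. They were followed in a small artery of hypertensive and normotensive rats. A member was a gene picked by its platform symbol, and its brightest probeset with 1 symbol stood for it. Complex I symbols began with Nduf, then a, b, c, s or v, then a digit, and those of complex II were Sdha, Sdhb, Sdhc and Sdhd. Symbols of complex III began with Uqcr or were Cyc1, and Cycs was taken as well. Those of complex IV began with Cox and a digit of 4 to 8, and those of complex V began with Atp5. Of 79 such genes, carried by 84 probesets with 1 matching symbol, 75 had a third-highest signal over the 9 arrays of at least 44.3, the minimum used for the whole series, and were members. They stood among 9099 probesets kept of 15866 that were not array controls. Complex I had 33 members, complex II 4, complex III 8, complex IV 14 and complex V 16. Ndufa4, once counted with complex I, was placed in complex IV, and the pseudogene Cox6c-ps1 and the ATPase inhibitor Atp5if1 were kept because their symbols match. A further 9 kept probesets carry several symbols and were not used, and of the other genes 4 were under the minimum.

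RNA came from the first side branch of the saphenous artery of male rats aged 16 weeks, each array holding a pool of 2 to 3 animals. The 3 groups of 3 arrays each were SHR, an inbred strain with inherited hypertension, ACTH, which were WKY rats given subcutaneous adrenocorticotropic hormone for the last 4 weeks, and WKY, the related normotensive strain without treatment. SHR differ from WKY in genetic background as well as in blood pressure, no vehicle is stated for the WKY group, and the ACTH group shares its strain with WKY but not with SHR. The comparisons asked which transcripts accompany a genetic and a hormone-induced hypertension, and how the models differ. SHR and ACTH were each set against the same WKY arrays, so these comparisons are not independent of each other.

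Complexes I and II feed electrons from NADH and succinate into ubiquinone, complex III passes them to cytochrome c and complex IV passes them to oxygen. Proton pumping by complexes I, III and IV drives ATP synthesis by complex V. Smooth muscle of arteries uses both this pathway and aerobic glycolysis for its ATP. Several subunits of complex IV exist as tissue isoforms, with one form in most tissues and another in heart, skeletal muscle, lung or testis. The nuclear genes of the pathway are known targets of the factors NRF1, GABPA (NRF2) and YY1, and complex II is the only one of these complexes with no subunit made from mitochondrial DNA.

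Signals are MAS5 values on a linear scale, and changes are differences of mean log2 signals with their standard errors (SE). A probeset was called changed at an adjusted p under 0.05 (limma, Benjamini-Hochberg over the 9099 kept probesets, two-sided). A trimmed mean of about 150 was common to all arrays, and arrays of one group correlated at r = 0.951 to 0.979 in log2 signal, over probesets. Smooth muscle markers marked the tissue as labelled, with 8 of 8 kept and a summed signal of 20600 to 22710 in SHR, 20630 to 21930 in ACTH and 19940 to 23980 in WKY. The 3'/5' ratio of the GAPDH control, the GAPDH ratio used below, grows as RNA is shorter at its 5' end. It was 3.57 to 5.16 in SHR, 3.67 to 4.52 in ACTH and 4.91 to 5.99 in WKY. The GAPDH 3'/middle ratio was 1.32 to 1.55 in SHR, 1.64 to 1.72 in ACTH and 1.66 to 1.89 in WKY. The beta-actin 3'/5' ratio was 8.35 to 9.14 in SHR, 8.37 to 9.68 in ACTH and 9.77 to 13.6 in WKY. Arrays were scanned on 4 days, with SHR 1, SHR 2 and WKY 2 on one, SHR 3 and the 3 ACTH arrays on another, and WKY 1 and WKY 3 each alone. No day held both ACTH and WKY arrays.

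Member promoters were searched for letters typical of NRF1, GABPA and YY1 sites, which the choice by symbol did not use. RefSeq promoters of the rat build GRCr8, running from 250 bases before to 50 bases after the start of the gene, were found for 66 of the 75 members. Those without one were Atp5pd, Cox4i2, Cox6a1, Cox6c, Cox6c-ps1, Cyc1, Ndufa8, Ndufb9 and Uqcr11. The letters searched on both strands were GCATGCGC for the core of NRF1, CCGGAAGT for GABPA and AAGATGGC for YY1. The YY1 letters stood in 15 of 66 member promoters (22.7%) and in 3.44% of all 27457 promoters of the table. For GABPA the counts were 8 members (12.1%) against 4.01% of all promoters, and for NRF1 7 members (10.6%) against 2.66%. At least 1 of the 3 was present in 25 members (37.9%) and in 9.42% of all promoters, and 41 of the 66 member promoters had none. Because the NRF1 letters read nearly alike on both strands, a match on each strand can overlap within one stretch.

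The promoters of 4 members are shown, that of Ndufa12, the only member called changed, and those of a complex III, a complex IV and a complex V member that held 2 or more matches. Capitals mark the matched letters on either strand. Ndufa12 (chr7:30658066-30658365, plus strand) had 0 matches. Uqcrc1 (chr8:118467973-118468272, plus strand), which encodes a core protein of complex III, had 1 NRF1 and 1 YY1 match. Cox8a (chr1:213833574-213833873, minus strand), which encodes the widely expressed form of subunit VIII, had 2 GABPA matches and 1 YY1 match. Atp5po (chr11:44657434-44657733, minus strand), which encodes the OSCP subunit joining both parts of the ATP synthase, had an NRF1 match on each strand, overlapping, and 1 YY1 match. A match describes letters only and shows neither binding nor a cause.
Ndufa12: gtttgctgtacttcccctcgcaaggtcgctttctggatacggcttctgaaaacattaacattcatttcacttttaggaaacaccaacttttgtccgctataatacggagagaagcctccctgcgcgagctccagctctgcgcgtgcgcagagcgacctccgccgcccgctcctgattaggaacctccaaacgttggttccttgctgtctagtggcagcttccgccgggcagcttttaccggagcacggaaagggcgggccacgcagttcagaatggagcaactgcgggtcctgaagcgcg
Uqcrc1: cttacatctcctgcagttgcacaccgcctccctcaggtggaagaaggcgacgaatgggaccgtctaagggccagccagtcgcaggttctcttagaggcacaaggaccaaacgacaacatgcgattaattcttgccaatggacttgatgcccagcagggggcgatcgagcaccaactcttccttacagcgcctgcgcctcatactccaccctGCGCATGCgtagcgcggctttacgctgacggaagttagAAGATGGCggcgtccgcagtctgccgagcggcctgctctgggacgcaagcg
Cox8a: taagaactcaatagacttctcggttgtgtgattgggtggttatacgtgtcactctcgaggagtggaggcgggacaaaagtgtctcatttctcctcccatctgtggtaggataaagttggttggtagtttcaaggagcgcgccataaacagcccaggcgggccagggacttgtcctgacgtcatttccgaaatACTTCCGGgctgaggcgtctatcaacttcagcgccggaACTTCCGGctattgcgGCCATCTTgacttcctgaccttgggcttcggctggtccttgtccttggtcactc
Atp5po: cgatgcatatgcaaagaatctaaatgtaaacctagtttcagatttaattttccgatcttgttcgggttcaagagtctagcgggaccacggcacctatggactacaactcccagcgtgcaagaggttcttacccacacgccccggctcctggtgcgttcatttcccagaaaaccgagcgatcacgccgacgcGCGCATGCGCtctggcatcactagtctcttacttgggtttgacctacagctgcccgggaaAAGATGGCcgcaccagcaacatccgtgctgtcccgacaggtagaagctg

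The median change of the members was at most 0.12 in size on the log2 scale, and 1 of 75 members was called in any comparison. In SHR minus WKY 0 members were called, where 2.04% of all kept probesets were (186 of 9099). In ACTH minus WKY 0 were called against a background of 1.21% (110). In SHR minus ACTH 1 member was called, Ndufa12, which is 1.33% of the members against 3.4% of all kept probesets (309). Without adjustment, at p under 0.05, 5 members were higher and 2 lower in SHR than in WKY, where 8.11% and 8.3% of all probesets were. In ACTH against WKY 1 member was higher (background 6.86%) and 6 were lower (background 5.59%). In SHR against ACTH 12 members, or 16% of them, were higher (background 7.61%) and 1 was lower (background 9.58%).

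Members were also counted whose 3 arrays in one group all lay on one side of the 3 arrays of the other. SHR lay wholly above ACTH for 20 members (26.7%, against 11.7% of all kept probesets) and wholly below for 1 (background 13.3%). ACTH lay wholly below WKY for 12 members (16%, background 9.77%) and wholly above for 3 (background 10.7%). SHR lay wholly above WKY for 9 members (background 9.72%) and wholly below for 3 (background 9.64%). These counts describe the members and are not a test of the list.

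**Figure D1:**
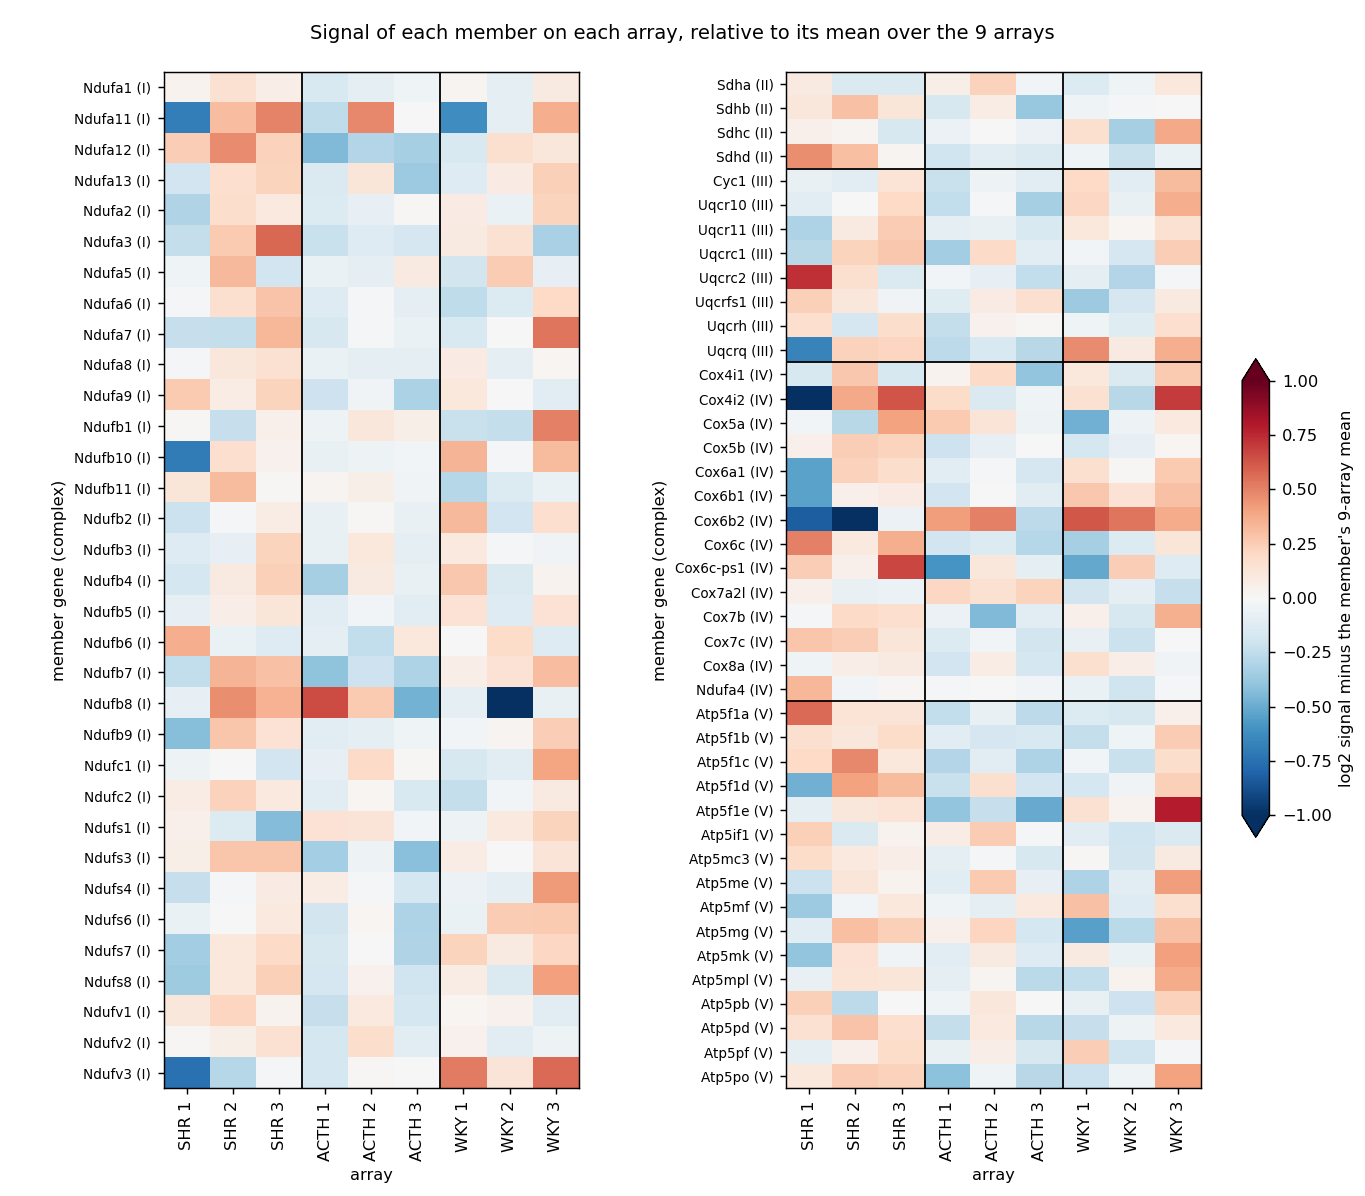
Each row is a member with its complex, each column an array, and the colour is the log2 signal minus the member's mean over the 9 arrays (red above, blue below). ACTH 1 and ACTH 3 are mostly blue, with 12 and 13 of 75 members above their mean, WKY 3 is mostly red with 57 above, and single rows such as Cox6b2 and Ndufv3 are darker than the rest.

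The median member change was small in each comparison. It was 0.03 in SHR minus WKY, with 42 of 75 members above 0, beside a median of -0.00 and 49.4% above 0 over all kept probesets. In ACTH minus WKY it was -0.11, with 60 of 75 members below 0, beside 0.02 and 54.1% above 0 over all. In SHR minus ACTH it was 0.12, with 56 of 75 above 0, beside -0.02 and 47.5% above 0 over all. The medians moved when single arrays were left out. Without WKY 3 the ACTH minus WKY median was -0.06 and 27 members lay above 0. The SHR minus ACTH median was 0.22 without SHR 1 and 0.07 without SHR 3. In SHR minus WKY it was -0.00 without WKY 2 and -0.02 without SHR 3, and 0.10 without WKY 3 and 0.10 without SHR 1. Within the scan day that held both groups, the mean of SHR 1 and SHR 2 minus WKY 2 had a member median of 0.08 with 46 of 75 above 0. In the day of the ACTH arrays, SHR 3 minus their mean had a median of 0.24 with 61 of 75 above 0. With scan day as a block, ACTH minus WKY, which then runs through SHR arrays, had a median of -0.13 with 24 of 75 above 0. When the GAPDH ratio was fitted as a covariate, the median was -0.06 in ACTH minus WKY, with 51 of 75 members below 0, and 0.08 in SHR minus WKY, with 52 of 75 above 0. The GAPDH 3'/5' ratios of ACTH and WKY given above did not overlap. For SHR, the GAPDH 3'/middle ratio overlapped neither other group, and the beta-actin ratio did not overlap with WKY. The GAPDH 3'/middle and beta-actin ratios were not entered in any fit, and their part in the member values was not tested.

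Per array, the median of the members' log2 deviation from their own 9-array mean was -0.05, 0.12 and 0.13 in SHR 1 to 3, -0.12, -0.00 and -0.12 in ACTH 1 to 3, and -0.03, -0.08 and 0.17 in WKY 1 to 3. All ACTH arrays lay below SHR 2 and SHR 3 but not all below SHR 1, and the WKY arrays overlapped both other groups. The pooled SD of these medians within groups was 0.102, beside median changes of 0.03, -0.11 and 0.12 between groups. Over all kept probesets, on arrays each scaled to a common target, the same medians ran from -0.02 to 0.02. In a bulk sample a smaller share of mitochondria-rich cells and less RNA per cell cannot be told apart.

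**Figure D2:**
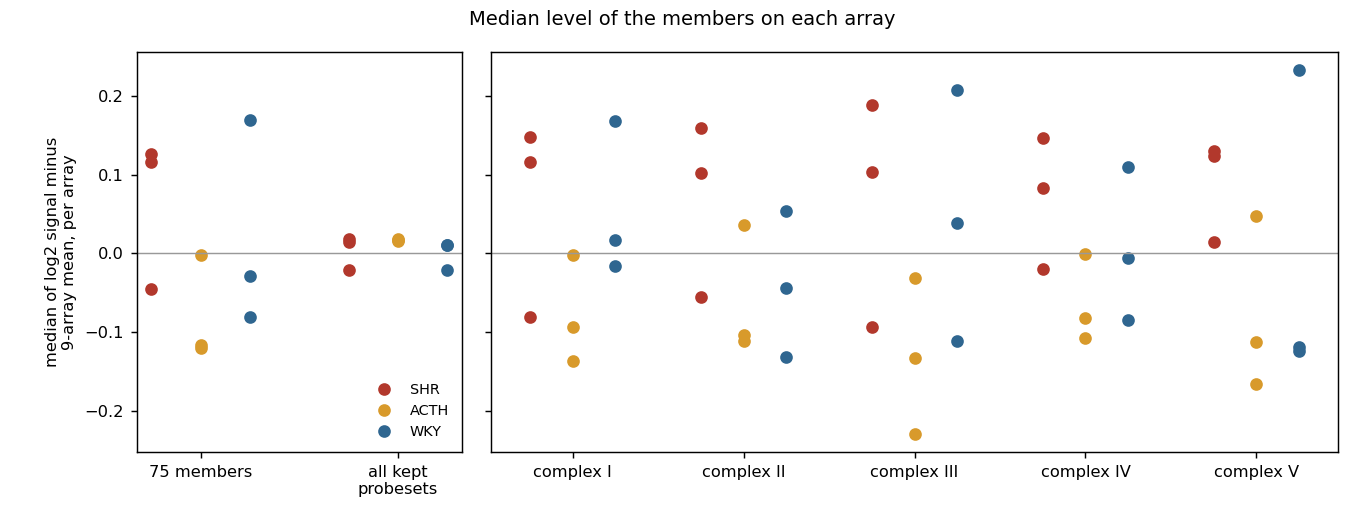
Each point is 1 array, at the median over members of log2 signal minus the 9-array mean, for all members and all kept probesets (left) and by complex (right), with SHR, ACTH and WKY from left to right in each set. WKY 3 lies highest in WKY for all members at 0.17 and for complex V at 0.23, and the ACTH arrays lie at or below 0 for all members.

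By complex, the medians had the same sign in every complex for ACTH minus WKY and for SHR minus ACTH. In ACTH minus WKY the medians were -0.14 for complex I (28 of 33 members below 0), -0.08 for complex II (3 of 4), -0.15 for complex III (6 of 8), -0.11 for complex IV (11 of 14) and -0.10 for complex V (12 of 16). In SHR minus ACTH they were 0.12, 0.17, 0.14, 0.09 and 0.17 for complexes I to V, and 8 of 8 members of complex III lay above 0. In SHR minus WKY they were -0.00, 0.08, -0.01, 0.09 and 0.10, with 12 of 16 members of complex V above 0. The SD of a complex's array medians over 3 arrays ran up to 0.205, for complex V in WKY.

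**Figure D3:**
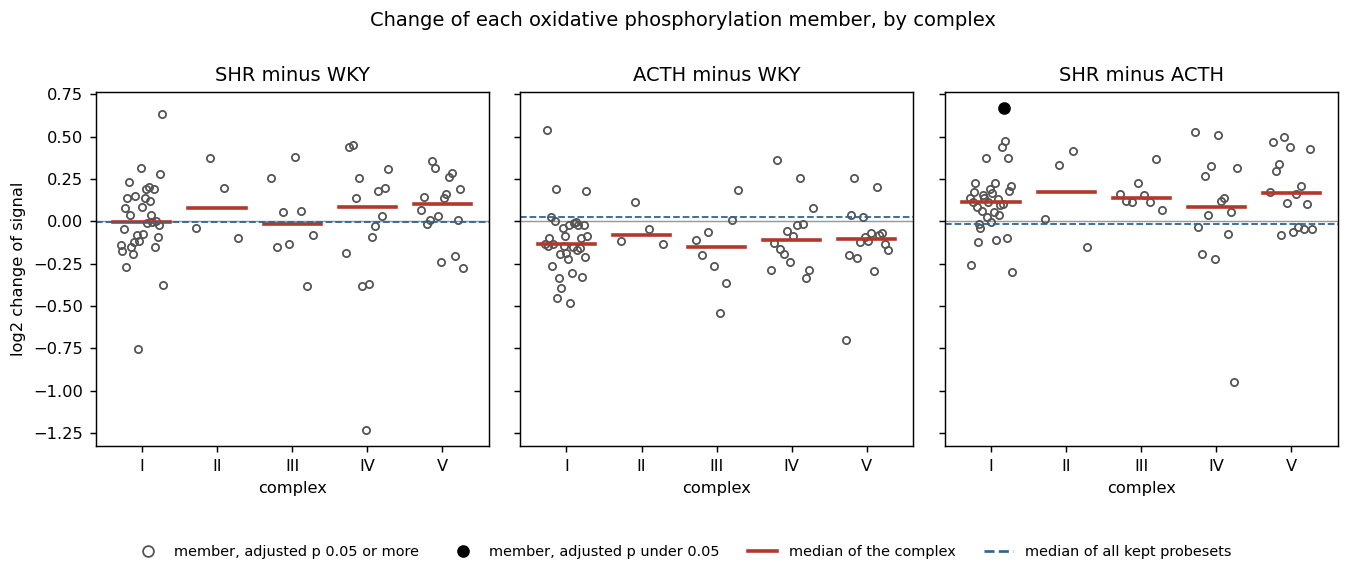
Each circle is the log2 change of 1 member by complex in SHR minus WKY, ACTH minus WKY and SHR minus ACTH, with red bars for the median of a complex and a dashed line for the median of all kept probesets. One member is filled, Ndufa12 in SHR minus ACTH at 0.67, and the lowest circle is Cox6b2 in SHR minus WKY at -1.23.

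The intervals give the range of change for each member taken alone, without adjustment for the number of probesets tested, and are not a limit for calling. The 95% interval of the change lay wholly within a log2 value of 1 either way, or 2-fold, for 70 of 75 members in SHR minus WKY, 71 in ACTH minus WKY and 72 in SHR minus ACTH. The exceptions were Cox4i2 in all comparisons, Ndufb8 in both comparisons with WKY, Cox6b2 and Cox6c-ps1 in both with SHR, Ndufv3 in SHR minus WKY, and Uqcrq and Atp5f1e in ACTH minus WKY. The median SE of a member was 0.168, beside 0.183 over all kept probesets.

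Complex I takes electrons from NADH and is the largest complex of the chain. Ndufa12, an accessory subunit of its matrix arm, had signals of 1466, 1720 and 1456 in SHR, 913, 1013 and 981 in ACTH and 1112, 1380 and 1340 in WKY. All SHR arrays lay above all WKY arrays, which lay above all ACTH arrays. It was higher in SHR than in ACTH by 0.67 (SE 0.14, limma adjusted p = 0.031). The changes of 0.28 in SHR minus WKY (SE 0.14, adjusted p = 0.37) and of -0.39 in ACTH minus WKY (SE 0.14, adjusted p = 0.282) did not pass. Within the scan day that held both groups, SHR 3 lay 0.59 above the mean of the ACTH arrays. The call was lost without any of ACTH 1, ACTH 2, ACTH 3, SHR 2 or SHR 3, at adjusted p = 0.143, 0.0758, 0.113, 0.112 and 0.0663 in this order, while the change itself was 0.63, 0.70, 0.68, 0.59 and 0.71. It was also lost when scan day entered the fit as a block (0.59, adjusted p = 0.333).

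Ndufs3, a core subunit of the matrix arm, had signals of 400, 467 and 467 in SHR, 304, 371 and 288 in ACTH and 405, 384 and 420 in WKY. The ACTH arrays were the lowest and overlapped neither other group. The change was 0.48 in SHR minus ACTH (SE 0.14, adjusted p = 0.117) and -0.34 in ACTH minus WKY (SE 0.14, adjusted p = 0.377). Ndufv3, a small subunit at the NADH-oxidising tip, had 124, 171 and 205 in SHR, 184, 210 and 209 in ACTH and 298, 227 and 307 in WKY. It lay lowest in SHR 1 and above both other groups in all WKY arrays. Its change was -0.75 in SHR minus WKY (SE 0.20, adjusted p = 0.0919), while a dimmer probeset of the same gene gave -0.27 (SE 0.26, adjusted p = 0.648).

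The subunits of complex I that bind NADH, flavin and iron-sulfur clusters were Ndufv1 and Ndufs1 among the named members. Ndufv1, which binds NADH and the flavin, averaged 820 ± 50.7 in SHR, 704 ± 87.6 in ACTH and 746 ± 41.3 in WKY (SD, n = 3 each). Ndufs1, which holds several iron-sulfur clusters, averaged 182 ± 30.1 in SHR, 216 ± 13.9 in ACTH and 217 ± 20.2 in WKY (SD, n = 3 each). For both genes the arrays of the groups overlapped in every comparison, and the changes lay between -0.27 and 0.22. Ndufb7, in the proton-pumping arm and named after its values were seen, had 618, 928 and 897 in SHR, 554, 634 and 591 in ACTH and 768, 811 and 909 in WKY. Its ACTH arrays lay below all WKY arrays (-0.48, SE 0.17, adjusted p = 0.28).

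**Figure D4:**
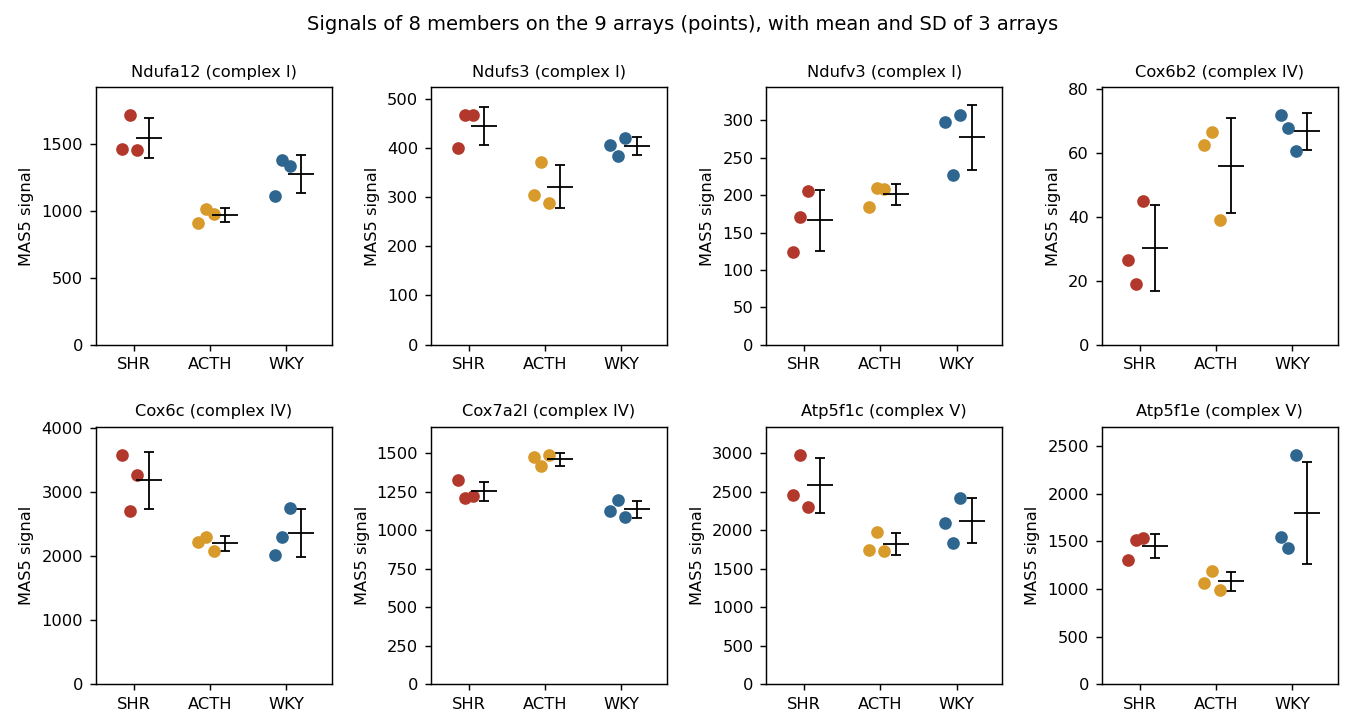
Points are MAS5 signals of the 9 arrays for 8 members, in SHR, ACTH and WKY from left to right, and the cross with bars is the mean and SD of 3 arrays, on linear axes that start at 0. Ndufa12 separates all SHR from all ACTH arrays, Cox6b2 is lowest in SHR, Cox7a2l is highest in ACTH, and WKY 3 stands above the other WKY arrays for Atp5f1e at 2411.

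Complex II, succinate dehydrogenase, also belongs to the citric acid cycle. Sdhd, a membrane anchor of the complex, had signals of 1460, 1306 and 1083 in SHR, 922, 979 and 958 in ACTH and 1028, 908 and 1012 in WKY. All SHR arrays lay above all others. The change was 0.42 in SHR minus ACTH (SE 0.15, adjusted p = 0.169) and 0.38 in SHR minus WKY (SE 0.15, adjusted p = 0.242), and a dimmer Sdhd probeset gave 0.42 and 0.43 for the same comparisons. Sdhb, the iron-sulfur subunit, had 819, 928 and 821 in SHR, 676, 798 and 582 in ACTH and 733, 746 and 758 in WKY. SHR lay above both other groups on every array, with changes of 0.33 (SE 0.15, adjusted p = 0.286) against ACTH and 0.20 (SE 0.15, adjusted p = 0.539) against WKY. Sdha, the flavoprotein, averaged 1099 ± 104 in SHR, 1222 ± 114 in ACTH and 1130 ± 96.0 in WKY (SD, n = 3 each), with the arrays overlapping in every comparison.

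Complex III had 0 members called and 1 with an unadjusted p under 0.05, Uqcrq in ACTH minus WKY. Uqcrq, a small subunit, had signals of 753, 1402 and 1384 in SHR, 996, 1073 and 987 in ACTH and 1655, 1270 and 1538 in WKY. SHR 1 lay far below the other SHR arrays, and all ACTH arrays lay below all WKY arrays (-0.54, SE 0.23, adjusted p = 0.372). Uqcrc2, a core protein, had 959, 648 and 524 in SHR, 567, 546 and 488 in ACTH and 545, 473 and 575 in WKY, so that here SHR 1 lay highest. Uqcr10, another small subunit, averaged 521 ± 57.3 in SHR, 445 ± 52.7 in ACTH and 574 ± 87.0 in WKY (SD, n = 3 each). The arrays of the groups overlapped in every comparison for 3 further genes. Uqcrfs1, the Rieske iron-sulfur protein, averaged 620 ± 58.1 in SHR, 592 ± 58.1 in ACTH and 523 ± 82.2 in WKY. Cyc1, cytochrome c1, averaged 768 ± 73.1, 710 ± 41.9 and 859 ± 126 in SHR, ACTH and WKY. Uqcrc1, whose promoter is shown above, averaged 1239 ± 243, 1104 ± 207 and 1185 ± 175 in the same groups (SD, n = 3 each).

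Complex IV, cytochrome c oxidase, held the members with the widest spread. Cox6b2, known as the testis form of subunit VIb, had low signals of 26.5, 19.1 and 45.1 in SHR, 62.7, 66.6 and 39.2 in ACTH and 72.0, 68.0 and 60.6 in WKY. All SHR arrays lay below all WKY arrays, and ACTH 3 lay within the SHR range. The change was -1.23 in SHR minus WKY (SE 0.30, adjusted p = 0.0699) and -0.95 in SHR minus ACTH (SE 0.30, adjusted p = 0.128). Without SHR 3 both passed, at -1.57 (adjusted p = 0.0164) and -1.28 (adjusted p = 0.0373). With the GAPDH ratio as a covariate the SHR minus WKY change was -0.55 (adjusted p = 0.564). SHR 1, SHR 2 and ACTH 3 lay below the minimum of 44.3. Cox6b1, the form of most tissues and named after its values were seen, averaged 882 ± 197 in SHR, 886 ± 58.4 in ACTH and 1119 ± 59.2 in WKY (SD, n = 3 each).

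Cox6c, a small nuclear-encoded subunit, had signals of 3580, 2704 and 3256 in SHR, 2219, 2299 and 2072 in ACTH and 2008, 2298 and 2751 in WKY. SHR lay above all ACTH arrays, and SHR 2 lay just under WKY 3. The change was 0.53 in SHR minus ACTH (SE 0.16, adjusted p = 0.121) and 0.44 in SHR minus WKY (SE 0.16, adjusted p = 0.226). The pseudogene Cox6c-ps1 may share sequence with it, and the probesets were not checked for this, so both are uncertain. Cox7a2l, known as a factor that links complexes III and IV, had 1322, 1209 and 1223 in SHR, 1472, 1412 and 1490 in ACTH and 1122, 1197 and 1087 in WKY. Cox7a2l was ordered ACTH, SHR, WKY from the highest, with no overlap. Both comparisons with ACTH had signs opposite to most members, at 0.36 in ACTH minus WKY (SE 0.12, adjusted p = 0.237) and -0.22 in SHR minus ACTH (SE 0.12, adjusted p = 0.398). Cox7c, another small subunit and named after its values were seen, had 2170, 2126 and 1954 in SHR, 1629, 1758 and 1584 in ACTH and 1707, 1543 and 1795 in WKY, so that SHR lay above all other arrays (0.33 against ACTH, SE 0.13, adjusted p = 0.223).

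Of the tissue isoforms of complex IV, those of most tissues passed the minimum and those of heart and skeletal muscle did not. Cox6a2, Cox7a1 and Cox8b, the heart and skeletal muscle forms, had third-highest signals of 2.08, 6.07 and 4.12. Cox6a1, the widely expressed partner of Cox6a2, had 994, 1694 and 1632 in SHR, 1338, 1424 and 1284 in ACTH and 1612, 1451 and 1728 in WKY. Cox8a, the partner of Cox8b, averaged 2679 ± 132 in SHR, 2444 ± 260 in ACTH and 2729 ± 187 in WKY (SD, n = 3 each). Both overlapped between SHR and WKY, while all ACTH arrays of Cox6a1 lay below all WKY arrays (-0.24, SE 0.20, adjusted p = 0.70). Cox4i1, the common form of subunit IV, averaged 1493 ± 265, 1462 ± 293 and 1585 ± 222 in SHR, ACTH and WKY (SD, n = 3 each). Cox4i2, a form known from lung, had 14.4, 55.5 and 66.0 in SHR, 48.7, 38.7 and 41.6 in ACTH and 47.4, 35.3 and 69.6 in WKY, with a 95% interval of -1.45 to 0.69 for SHR minus WKY. Ndufa4l2, a relative of Ndufa4 induced by low oxygen, was under the minimum at a third-highest signal of 30.3. The Cox5a probeset with that symbol alone was just inside the minimum at 44.5. A brighter probeset carries Cox5a and another symbol (third-highest signal 986) and was not used. Cox7a2 and Cycs had no probeset with that symbol alone, and the kept probesets that carry them with other symbols were not used.

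Complex V, the ATP synthase, makes ATP in its F1 head. Its catalytic subunit Atp5f1b had signals of 3342, 3233 and 3385 in SHR, 2761, 2662 and 2686 in ACTH and 2529, 2904 and 3568 in WKY. SHR lay above ACTH on every array, and the WKY arrays spanned both (0.30 in SHR minus ACTH, SE 0.15, adjusted p = 0.343). Atp5f1a, the other large subunit of the head, had 2706, 2010 and 1995 in SHR, 1538, 1734 and 1527 in ACTH and 1664, 1637 and 1891 in WKY. SHR lay above all other arrays, at 0.47 (SE 0.16, adjusted p = 0.15) against ACTH and 0.36 (SE 0.16, adjusted p = 0.291) against WKY. Atp5f1c, the gamma subunit of the rotating shaft, had 2459, 2985 and 2310 in SHR, 1749, 1984 and 1729 in ACTH and 2102, 1841 and 2426 in WKY (0.50 in SHR minus ACTH, SE 0.16, adjusted p = 0.132). Its SHR arrays overlapped with WKY but not with ACTH.

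Atp5f1e, a small subunit at the foot of the shaft, had signals of 1304, 1510 and 1533 in SHR, 1063, 1191 and 985 in ACTH and 1548, 1434 and 2411 in WKY. ACTH was lowest without overlap, and WKY 3 stood far above the other WKY arrays. The change was -0.70 in ACTH minus WKY (SE 0.20, adjusted p = 0.155). Atp5po, whose promoter is shown above and which was named after its values were seen, had 1438, 1591 and 1571 in SHR, 1004, 1298 and 1103 in ACTH and 1155, 1299 and 1767 in WKY (0.44 in SHR minus ACTH, SE 0.18, adjusted p = 0.238). Atp5if1, which inhibits ATP hydrolysis by the synthase and was likewise named after its values were seen, averaged 289 ± 38.9 in SHR, 301 ± 29.5 in ACTH and 252 ± 8.28 in WKY (SD, n = 3 each).

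Other genes of the pathway had 0 calls in any comparison. Of the genes of mitochondrial DNA only COX1 and COX2 were measured under their platform symbols, a spelling added after the files were seen. COX1 averaged 5038 ± 131 in SHR, 4742 ± 411 in ACTH and 5734 ± 1850 in WKY, and COX2 averaged 5702 ± 350, 4523 ± 329 and 5086 ± 1038 in the same groups (SD, n = 3 each). WKY 1 was the highest array for both genes. Of 31 assembly factors kept of 38 on the array the median change was -0.03 in SHR minus WKY, -0.03 in ACTH minus WKY and 0.07 in SHR minus ACTH. For 22 of 24 genes of pyruvate dehydrogenase and the citric acid cycle it was -0.02, -0.01 and -0.05, for 15 of 20 carriers and coupling factors 0.09, 0.02 and 0.13, and for 12 of 15 regulators of mitochondrial genes -0.04, 0.06 and -0.10. The 12 kept regulators included Tfam, the transcription factor of mitochondrial DNA, at 197 ± 21.1 in SHR, 221 ± 13.2 in ACTH and 197 ± 16.0 in WKY (SD, n = 3 each). At an unadjusted p under 0.05, 2 assembly factors were higher and 1 lower in SHR than in WKY, 3 carriers were higher, 1 citric acid cycle gene was higher and 3 were lower, and 1 regulator was higher. In ACTH against WKY 1 carrier and 1 citric acid cycle gene were higher, and 1 assembly factor and 1 citric acid cycle gene were lower. In SHR against ACTH 3 assembly factors, 1 carrier and 1 citric acid cycle gene were higher and 1 assembly factor was lower. The shares over all kept probesets, higher and lower, were 8.11% and 8.3% in SHR against WKY. They were 6.86% and 5.59% in ACTH against WKY, and 7.61% and 9.58% in SHR against ACTH.

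Slc25a5, the ADP and ATP carrier that exports ATP made by complex V, had signals of 3361, 2574 and 2725 in SHR, 1985, 2121 and 2005 in ACTH and 1889, 1971 and 2392 in WKY. SHR lay above all other arrays, at 0.49 (SE 0.15, adjusted p = 0.122) against ACTH and 0.47 (SE 0.15, adjusted p = 0.172) against WKY. Pdk2, a kinase that switches off pyruvate dehydrogenase, had 63.4, 83.7 and 79.9 in SHR, 85.9, 99.1 and 87.9 in ACTH and 119, 104 and 112 in WKY. The groups were ordered SHR, ACTH, WKY with no overlap (-0.57 in SHR minus WKY, SE 0.15, adjusted p = 0.0906). Both genes were named after their values were seen.

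Markers of other cell types moved with the groups in part. Of 17 skeletal muscle markers on the array 5 were kept. All 17 summed to 1852 to 1992 in SHR, 1595 to 1685 in ACTH and 1533 to 1610 in WKY. Acta1 alone was called higher in SHR than in WKY (0.92, adjusted p = 0.0105), and 12 others, Ckm, Mb, Myh2, Myh4, Myh7 and the troponin genes among them, were under the minimum. Of the 5 kept, 3 lay above 0 and 2 below in SHR minus WKY. Acta1 had 901, 919 and 858 in SHR and 574, 420 and 436 in WKY. Myh1 went the other way, with 449, 492 and 536 in SHR and 594, 621 and 641 in WKY. Of brown fat markers only Cidea was kept of 4, at 53.9, 92.6 and 88.1 in SHR, 316, 349 and 300 in ACTH and 236, 268 and 361 in WKY, and it was called lower in SHR than in ACTH (-2.08, SE 0.23, adjusted p = 0.00125) and than in WKY (-1.90, SE 0.23, adjusted p = 0.00202). Ucp1, Dio2 and Ppargc1a were under the minimum. Of 6 fat cell markers 4 were kept, without Lep and Plin1. All 6 summed to 861 to 977 in SHR, 674 to 890 in ACTH and 665 to 847 in WKY. Of these Cfd was called, with signals of 99.0, 112 and 126 in SHR, 277, 339 and 159 in ACTH and 27.2, 111 and 37.0 in WKY (2.36 in ACTH minus WKY, SE 0.45, adjusted p = 0.0363). The median over the 4 kept fat cell markers was 0.64 in ACTH minus WKY, with 3 of 4 above 0. Lpl, the brightest of them, lay below 0 at -0.54. Its signals were 485, 361 and 444 in ACTH and 723, 601 and 549 in WKY. Of 6 macrophage markers 5 were kept, without Ptprc. All 6 summed to 324 to 407 in SHR, 465 to 649 in ACTH and 115 to 407 in WKY. Endothelial markers, 6 of 6 kept, summed to 2280 to 2765 in SHR, 2452 to 2938 in ACTH and 2844 to 3093 in WKY. Vwf alone of these was called, with signals of 366, 504 and 674 in SHR, 829, 1047 and 880 in ACTH and 1105, 1197 and 1350 in WKY (-1.28 in SHR minus WKY, SE 0.21, adjusted p = 0.0117). The other 5 endothelial markers had changes above 0 in SHR minus WKY, with a median of 0.29 over all 6. Of 4 Schwann cell markers 3 were kept. All 4 summed to 1745 to 2109 in SHR, 1866 to 1970 in ACTH and 1389 to 2117 in WKY. Of the smooth muscle markers only Des, desmin, was called, at -1.45 in SHR minus WKY (SE 0.22, adjusted p = 0.00708) and -1.25 in SHR minus ACTH (SE 0.22, adjusted p = 0.0136). The median over the 8 smooth muscle markers was -0.20 in SHR minus WKY and -0.19 in SHR minus ACTH. In each of these comparisons 5 lay below 0 and 3 above, although their summed signals overlapped between the groups. The part of all these cell type markers in the member values was not tested.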

How the data were processed

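The authors made the deposited intensity values, 1 signal per probeset on a linear scale, with the MAS5 algorithm on RAE230A arrays from doubly amplified RNA, and scaled each array to a target of 150, a procedure that hides a change shared by all genes. Detection calls were not used here. The labels and the study's methods state different ACTH doses, and samples were grouped by treatment alone.

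Signals were taken to log2 with no offset and fitted to the 3 groups of 3 arrays in R 4.3.3 with limma 3.58.1 (lmFit, contrasts.fit, eBayes without trend, 6 residual and 4.44 prior degrees of freedom). P-values are two-sided and adjusted by the Benjamini-Hochberg method over 9099 probesets whose third-highest signal was at least 44.3, and the number of arrays limits the precision. Symbols come from the platform annotation, and all 75 members had the same symbol in RefSeq. The members, lists and tests were chosen with earlier results of these data known. Named were members called in any comparison, the 3 of each complex with the lowest F test p, Ndufs3, redox and catalytic subunits, and isoform pairs, and 1 gene of this rule is not reported here. The fit was tested on simulated data. Each array is a pool of 2 to 3 rats, and p-values measure the spread between these pools. Alternatives covered the filter, normalization, offset, variance model, array weights, GAPDH ratio, scan day, replicate number and each array left out. Figures were drawn with matplotlib 3.10.9. Promoter sequences are those of RefSeq (GRCr8).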

Additional observations from a re-analysis of the deposited data

Results flagged for a closer look

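Ndufa12 was the only member for which the SHR and the ACTH effect against WKY differed by a test of the difference itself. SHR minus ACTH was 0.67 (SE 0.14, limma adjusted p = 0.031), with all 3 SHR arrays above all 3 ACTH arrays, and the same test passed for 1 of 75 members and 3.4% of all kept probesets.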

How the results depend on the processing

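In SHR minus ACTH, 1 member was called, and 0 were called with all non-control probesets (52 called in all, against 309), quantile normalization, no moderation (119 in all) or scan day as a block (35 in all). It was 2 with a variance trend (Cox6c and Ndufa12) and with the GAPDH ratio as a covariate (Ndufa12, and Cox6b2 lower in SHR), and 5 with array weights (Atp5f1c, Atp5po, Ndufa12, Ndufb7 and Ndufs3, of 883 in all). The change of Ndufa12 was 0.67 (adjusted p = 0.134) with all non-control probesets, 0.62 (0.0527) with quantile normalization, 0.67 (0.0556) without moderation and 0.59 (0.333) with the scan day block. In SHR minus WKY, 1 member was called with log2 of signal plus 16 (Cox6b2, -0.88, adjusted p = 0.048). The SHR minus ACTH median of 0.12 was 0.24 with scan day as a block, which compares SHR 3 with the ACTH arrays. Why these settings differ was not tested. More probesets entered the fit and the adjustment with all non-control probesets, and fewer arrays were compared within a scan day. Members with an unadjusted p under 0.05 in SHR minus ACTH also went from 13 to 10 with all non-control probesets. With one array left out, members called ranged from 0 to 1 in SHR minus WKY, 0 to 0 in ACTH minus WKY and 0 to 1 in SHR minus ACTH, and medians from -0.02 to 0.10 in SHR minus WKY, -0.16 to -0.06 in ACTH minus WKY and 0.07 to 0.22 in SHR minus ACTH. Replicate numbers did not pair the arrays (9 same-number pairs, correlations of deviations -0.067 to 0.129), and with a replicate block 0, 0 and 1 members were called. The study's own unadjusted thresholds, an F test p of 0.02 and a contrast p of 0.015, were passed by 1, 2 and 5 members, beside 5.5%, 4.13% and 6.61% of all kept probesets. Over all kept probesets, calls ranged from 26 (scan day as a block) to 237 (variance trend) in SHR minus WKY, where 186 were reported, and in ACTH minus WKY from 0 (all non-control probesets, the GAPDH ratio or scan day) to 201 (array weights), where 110 were reported.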
